A study of Drosophila melanogaster with 14 samples.

Results

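The cuticle protein genes of Drosophila melanogaster were followed through 14 RNA-seq libraries of young embryos. Members were the genes whose symbol begins with Cpr and a digit, Twdl, Lcp, Pcp, Ccp84, Acp65 or Edg, so that Cpr, a P450 reductase, stayed out. This gave 125 genes, all listed in both deposited tables, of 15682 genes in the table of stages and extracts and 15288 genes in the table of genotypes. They comprised 70 Cpr, 26 Twdl, 17 Lcp, 7 Ccp84 and 3 Edg genes, and Acp65Aa and Pcp, each alone under its prefix. The rule used names only and no measured value.

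The insect cuticle is an extracellular coat of chitin fibres and proteins that the epidermis and the tracheal cells secrete at their apical surface. Most Cpr, Lcp, Ccp84, Acp65, Edg and Pcp genes encode proteins with the Rebers and Riddiford chitin-binding consensus, and the Tweedle genes (Twdl) encode a second, unrelated family of cuticle proteins. In the Drosophila embryo the larval cuticle is laid down late, well after the blastoderm stage, and most of these genes are known as genes of the differentiated epidermis.

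The table of stages and extracts held whole wt Oregon R embryos of 0 to 45 min after egg laying (early), and cytoplasmic and nuclear extracts of wt Oregon R embryos of 90 to 180 min. The table of genotypes held whole embryos of 0 to 180 min that were wt Oregon R, or came from transheterozygous mothers bearing grp fs1, Slbp 10/12 or Slbp 10/15, in the Oregon R background and crossed to wt males. grp encodes the replication checkpoint kinase Chk1 and Slbp the protein that binds the stem loop of histone mRNAs, so the mutant embryos had wt fathers and mutant mothers. Each of the 7 groups had 2 libraries, and values below are normalized counts, which are reads per gene divided by 1 size factor per library. Nothing in the sources used here says that the libraries of a group came from separate cultures of flies, so the p-values here reflect the scatter of these libraries alone, which may be technical. Where values for the 3 mutants follow each other without names, they are for grp fs1, for Slbp 10/12 and last for Slbp 10/15.

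Libraries held between 17368684 and 33866670 reads. grp RNA was 1718 to 2059 in the grp fs1 libraries against 13306 and 14113 in wt, and Slbp RNA was 186 to 262 in the Slbp libraries against 2776 and 2873 in wt, so the labels of the mutants held. The nuclear RNA snRNA:7SK was 642726 and 1065239 in the cytoplasmic extracts and 48503 and 53639 in the nuclear extracts, against the names of the extracts. The sum of 11 late zygotic blastoderm genes was 75416 and 95483 in the nuclear and 39351 and 48683 in the cytoplasmic extracts. Of these, 3 of 11 were called higher and 1 lower in the nuclear extracts, beside 26.9% and 28.6% of all genes. Whether the extracts match their labels was not tested, and "cytoplasmic" and "nuclear" below stand for the labels. Mhc, the myosin heavy chain gene of differentiated muscle, had 9651 and 8167 in the early libraries. This goes against their label of 0 to 45 min, and both early libraries carried it, so "early" below is the label too. Mhc also had 1263 and 7814 in the cytoplasmic extracts, 12020 and 4027 in the nuclear extracts and 6053 and 6787 in wt of the genotype table. It had 0.93 and 1123 in grp fs1 and 3.50 to 18.8 in the Slbp libraries. Whether the ages of the extracts, wt and mutants match their labels was not tested, so the ages given for these groups are labels as well. The 2 tables were normalized separately, and values are tested only within a table. Since RNA was measured in bulk, fewer cells that express a gene and less of its RNA per cell cannot be told apart.

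By gene identifier all 125 members were matched to the annotation BDGP6.54, which is a later build than the dm3 genome the reads were aligned to, and positions are given in BDGP6.54 only. The members lay on 2L (7), 2R (28), 3L (48), 3R (34) and X (8). With gaps of at most 50000 bases joined, 96 members fell into 17 runs of neighbours and the rest stood alone. The longest run, at 3L:6130386-6161589, held 19 genes: Lcp65A genes, Cpr65A genes and Acp65Aa. A run of 12 Tweedle genes lay at 3R:26619118-26641054, and the Ccp84 genes lay with Edg84A at 3R:6684445-6704903. The genes were short, with a median length of 815 bases against 1667 bases for all protein-coding genes listed, and a median of 2 exons in their longest annotation against 3.

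Of the 125 members, 6 had no read in any of the 14 libraries (Cpr57A, Cpr65Ax1, Lcp65Ab1, Lcp65Ab2, the pseudogene Lcp65APsi and TwdlJ, all named after their values were seen). A gene was tested when its mean reached 5 normalized counts in at least 1 group of a table. The filter was met by 64 members for stages and extracts (34 Cpr, 20 Twdl, 5 Lcp, 3 Ccp84, Edg78E and Pcp) and by 66 members for genotypes (36 Cpr, 18 Twdl, 6 Ccp84, 5 Lcp and Edg78E). For stages and extracts, 5 passed through early embryos alone and 5 through the nuclear extracts alone. These members had to lie higher in that group than in the others, so calls of them below are descriptions. Of the members that did not pass, 14 were at 0 in all 6 libraries of the first table and 47 were above 0. The second table had 13 and 46 such genes. In all, 60 members passed in both tables and 55 passed in neither. The adult cuticle gene Acp65Aa passed in neither, with at most 3.96 in any library.

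Cuticle gene RNA was concentrated in wt embryos and in a few genes. Over all 125 members the early libraries held 7470 and 6216 normalized counts, the cytoplasmic extracts 1088 and 2602 and the nuclear extracts 6277 and 2024. In the genotype table wt held 4791 and 7157, grp fs1 held 30.8 and 945, Slbp 10/12 held 173 and 155, and Slbp 10/15 held 155 and 190. The early, wt and Slbp libraries differed at most 1.49-fold from their partners, while the cytoplasmic libraries differed 2.39-fold, the nuclear libraries differed 3.10-fold from each other and the grp fs1 libraries 30.7-fold. In reads, the members were counted 33 times in grp fs1 replicate 1, the fewest, and 8374 times in nuclear replicate 1, the most.

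**Figure D1:**
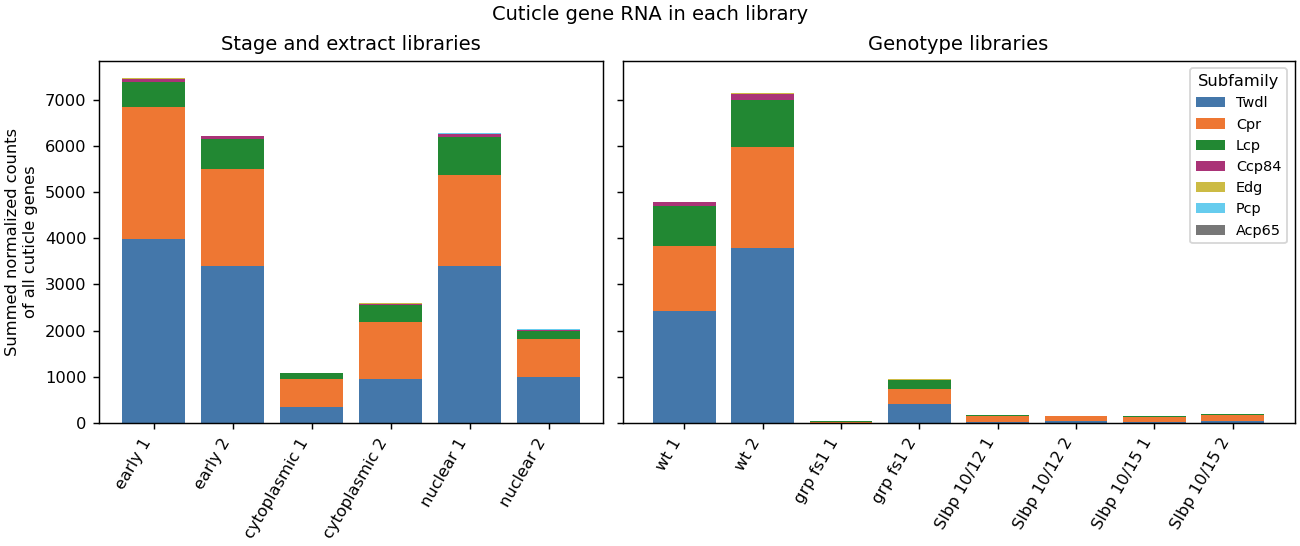
Summed normalized counts of the 125 cuticle genes (vertical axis) in each library (horizontal axis), with the subfamilies stacked. Left, wt early embryos and extracts; right, the genotypes, from a table that was normalized separately. Both wt bars and both early bars are tall, the 2 nuclear bars differ 3.10-fold, and the mutant bars reach at most 945.

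Tweedle genes made up about the same share of this sum in early embryos, nuclear extracts and wt, and less in the cytoplasmic extracts. They took 53.3% and 54.6% of the members' reads in early embryos, 54.0% and 49.0% in the nuclear extracts and 50.8% and 52.9% in wt embryos of 0 to 180 min, but 31.8% and 36.9% in the cytoplasmic extracts. Cpr genes took 38.3% and 34.0% in early embryos and 56.3% and 47.3% in the cytoplasmic extracts. Lcp genes took between 7.24% and 14.0% in the first table and 18.1% and 14.3% in wt of the second. The 7 Ccp84 genes together took at most 1.91% in any wt library. In the Slbp mutants, by contrast, 65.0% to 75.2% of the few remaining reads were from Cpr genes and 11.3% to 26.0% from Tweedle genes. Cpr49Ae alone made up 14.7% to 36.2% of the members' sum in these libraries. In grp fs1, Cpr genes took 87.9% and 33.9% and Tweedle genes 3.03% and 43.3%. Replicate 1 of grp fs1 rested on 33 reads, and Cpr60D alone took 69.7% of them.

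Per length, the order of the members in wt embryos of 0 to 180 min was led by TwdlN, with 30.6 and 37.5 FPKM (mean 34.0 ± 4.91, SD, n = 2). FPKM here is the normalized count per kilobase of gene, divided by 1 constant for all libraries. Cpr47Eg (28.0 and 26.8 FPKM), the larval cuticle gene Lcp65Ag3 (25.7 and 27.4 FPKM) and TwdlM (13.4 and 38.5 FPKM) came next. Both TwdlN libraries lay above both of Cpr47Eg and of Lcp65Ag3, whose ranges overlapped, while the range of TwdlM covered all of theirs. Only 11 members had a mean of 10 FPKM or more, 32 lay between 1 and 10, and 82 were under 1. Per kilobase the early libraries had a different leader, Cpr51A, at 831 normalized counts per kilobase, followed by Cpr65Ea at 792 and TwdlM at 723.

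**Figure D2:**
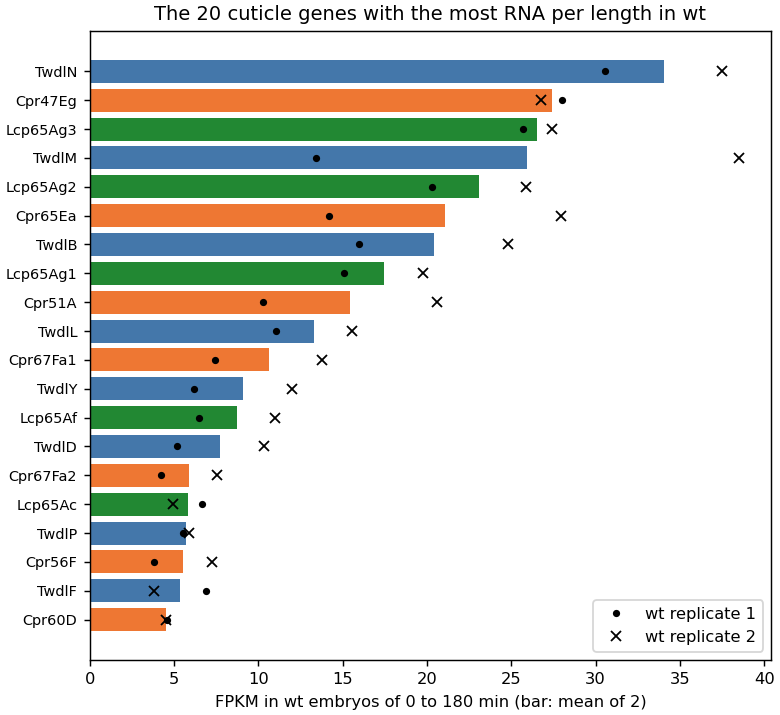
Mean FPKM (bars) and the values of the 2 libraries (symbols) of the 20 members with the highest mean FPKM in wt embryos of 0 to 180 min. Bars are blue for Twdl, orange for Cpr and green for Lcp, TwdlN leads with 34.0 FPKM, and the bar of TwdlM hides libraries at 13.4 and 38.5 FPKM.

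Near-identical neighbours can share reads, and how such reads were counted is not given in the sources used here. This touches Lcp65Ag1, Lcp65Ag2 and Lcp65Ag3, the Lcp65Ab pair, the Cpr65Ax pair, Lcp1 and Lcp2, and Cpr67Fa1 and Cpr67Fa2, whose separate values are uncertain. Whether counting used the strand is also not given, so that Cpr51A, Cpr56F, Cpr73D, Pcp, TwdlY and others that overlap a gene on the opposite strand may hold reads of that gene.

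**Figure D3:**
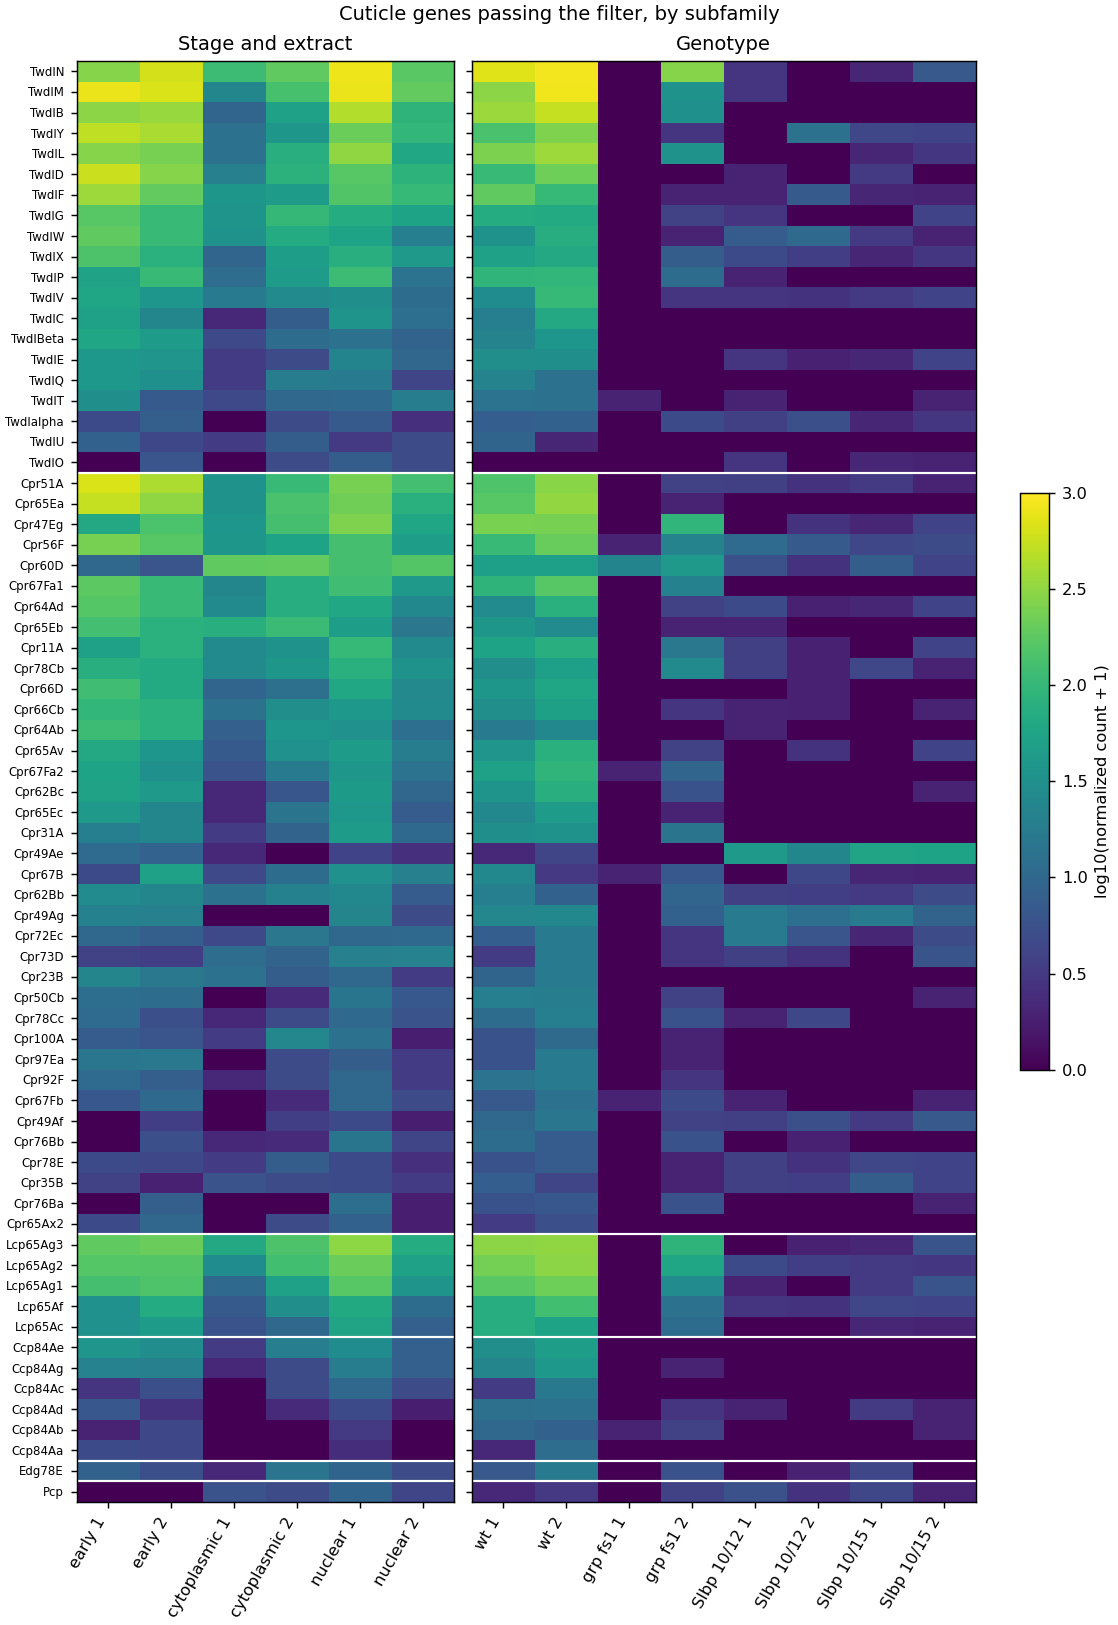
The 70 members that passed the filter in at least 1 table (rows, grouped by subfamily) in all 14 libraries (columns), coloured by log10 of the normalized count + 1. The grp fs1 replicate 1 column is dark in nearly every row, Cpr60D is bright in the extracts and dim in early embryos, and Cpr49Ae is bright in the 4 Slbp libraries.

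The first question was how cuticle gene RNA differed between early whole embryos and the extracts of blastoderm embryos. TwdlM, the most abundant member over this table, had 809 and 683 normalized counts in early embryos, 22.9 and 132 in the cytoplasmic extracts and 816 and 191 in the nuclear extracts. Cpr51A had 677 and 429 in early embryos, 32.6 and 103 in the cytoplasmic and 242 and 125 in the nuclear extracts. TwdlD, in which mutations alter body shape, had 575 and 282, then 19.3 and 84.3, then 165 and 86.6. For all 3 genes both early libraries lay above both cytoplasmic ones, and for Cpr51A and TwdlD they also lay above both nuclear ones.

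In the cytoplasmic extracts 29 of the 64 tested members were lower than in early embryos and 2 were higher (limma on log2 of the normalized count + 1, adjusted p under 0.05). Among all 10335 genes tested, 19.0% were lower and 17.8% higher. The 5 members that passed the filter through early embryos alone had to lie lower here. The median log2 difference was -1.71 over the tested members and -0.00 over all genes. The lower members were 15 Cpr, 11 Twdl, 2 Lcp and 1 Ccp84 genes. TwdlY had the largest fall, with 521 and 420 in early embryos against 12.1 and 38.2 (log2 difference -4.37, SE 0.56, adjusted p = 2.8e-05). TwdlB fell from 298 and 343 to 8.45 and 51.4 (-3.85, SE 0.74, adjusted p = 9.0e-04), and TwdlM by 3.72 (SE 0.68, adjusted p = 5.9e-04).

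Among the less abundant members Cpr62Bc had 45.8 as its early mean and 3.24 as its cytoplasmic mean (-3.64, SE 0.79, adjusted p = 0.0022). Cpr49Ag had 19.6 and 19.2 in early embryos and no read in either cytoplasmic extract, which puts it at least 5.13-fold lower, with 3 reads per library as the floor. Cpr50Cb also fell, from a mean of 10.9 to 1 read over both extracts (adjusted p = 0.0092). Not all members followed: Cpr65Eb, named after its values were seen, had 126 and 81.3 in early embryos and 74.8 and 111 in the cytoplasmic extracts, a difference of -0.15 (SE 0.59, adjusted p = 0.86). Lcp65Ag3 (182 and 207 against 63.9 and 145) did not pass the test either (SE 0.60, adjusted p = 0.20). Leaving out any early or nuclear library, or cytoplasmic replicate 1, brought the 31 calls down, while leaving out cytoplasmic replicate 2 raised them. With only the groups compared there were 18.

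Against early embryos, the nuclear extracts had fewer calls, and their libraries were unlike each other, with family sums of 6277 and 2024, the second below the 2602 of cytoplasmic replicate 2. The difference between the extracts in this respect was not tested. In the nuclear extracts, 7 of the 64 tested members were lower and 3 higher, where the shares of all genes were 15.7% and 8.35%, with a median of -0.84 over the members and 0.09 over all genes. The lower members were Cpr51A (-1.63, SE 0.54, adjusted p = 0.034), TwdlD, TwdlY, TwdlW, TwdlBeta, Cpr64Ab and Cpr65Eb. TwdlBeta had the largest of these differences, 5.11-fold by the means (-2.25, SE 0.69, adjusted p = 0.023), and Cpr64Ab from 96.3 to 21.8 (-2.25, SE 0.73, adjusted p = 0.032). TwdlN, in contrast, had 287 and 636 in early embryos and 828 and 171 in the nuclear extracts, where the groups overlapped. The 10 calls came to 1, which was that of Cpr60D, when early replicate 1, nuclear replicate 1 or nuclear replicate 2 was left out, and to 16 without cytoplasmic replicate 2. With upper quartile scaling none of the 7 lower calls was made.

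Both extract groups were compared with the same early libraries, so these 2 sets of values share their controls.

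The members that were higher in an extract than in early embryos were Cpr60D, Cpr73D and Pcp. Cpr60D, a short gene at 2R:24662682-24663406 with no annotated overlap, had 9.35 and 5.24 normalized counts in early embryos, 186 and 191 in the cytoplasmic extracts and 129 and 155 in the nuclear extracts. The early libraries lay far below all 4 extracts, and the replicates of each group were close. The log2 difference from early embryos was 4.56 (SE 0.53, adjusted p = 1.1e-05) in the cytoplasmic and 4.14 (SE 0.53, adjusted p = 1.9e-05) in the nuclear extracts, and Cpr60D was the most abundant member in both cytoplasmic libraries.

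Cpr73D rose in the nuclear extracts, from 2.80 and 2.62 to 19.5 and 20.2 (2.49, SE 0.70, adjusted p = 0.014). Pcp, the pupal cuticle protein gene that lies inside an intron of Gart, had no read in early embryos, 4.83 and 3.95 in the cytoplasmic and 8.25 and 3.24 in the nuclear extracts. This put it at least 1.62-fold and 2.12-fold higher (floor of 3 reads per library, adjusted p = 0.032 and 0.027). Pcp passed the filter through the nuclear extracts alone and so had to lie above the early libraries there, which makes its values a description. It rested on 7 and 15 reads, and both Pcp and Cpr73D overlap others on the opposite strand.

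The second question was how the extracts differed from each other. In the nuclear extracts 16 of the 64 tested members were higher than in the cytoplasmic extracts and 1 was lower, beside 26.9% and 28.6% of all genes, so the share higher was near the background and the share lower far below it. The median was 0.99 over the tested members and 0.24 over all genes. The higher members were 8 Twdl, 7 Cpr and 1 Ccp84 genes, and no Lcp gene passed the test. TwdlB had means of 267 and 29.9 (3.16, SE 0.74, adjusted p = 0.0017), TwdlM 503 and 77.3 (2.81, SE 0.68, adjusted p = 0.0021) and TwdlY 153 and 25.1 (2.66, SE 0.56, adjusted p = 7.9e-04). Cpr49Ag, with no cytoplasmic read, was at least 3.50-fold higher in the nuclear extracts, at 22.5 and 4.05.

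The exception was Cpr65Eb, which had 45.7 and 14.6 in the nuclear and 74.8 and 111 in the cytoplasmic extracts (-1.77, SE 0.59, adjusted p = 0.018), so that every cytoplasmic library lay above every nuclear one. Its direct neighbour Cpr65Ea, at 3L:7086003-7086608, had 220 and 80.1 against 33.8 and 136, and these groups overlapped. This comparison rested on single libraries: without nuclear replicate 1 no member was higher, without cytoplasmic replicate 1 only 4 were, and without cytoplasmic replicate 2 there were 31. Without nuclear replicate 2, 11 were higher and none lower. With upper quartile scaling, under which the all-gene median was 0.64 and not 0.24, 8 members were higher and none lower.

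The third question was how these genes differed in embryos of grp and Slbp mutant mothers. Counted over all 125 members, 60 and 66 reached 5 normalized counts in the wt libraries, against 1 and 22 (grp fs1), 5 and 7 (Slbp 10/12) and 4 and 4 (Slbp 10/15). Conversely, wt had 40 and 35 members at 0, grp fs1 had 114 and 61, and the Slbp libraries had 68 to 84. The summed level of the family in the Slbp mutants was 2.74% and 2.89% of the wt mean.

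TwdlN, the leading gene in wt with 712 and 874 normalized counts, had 0 and 282 (grp fs1), 1.83 and 0 (Slbp 10/12) and 1.10 and 5.94 (Slbp 10/15). TwdlM had 297 and 852 (wt), 0 and 33.9 (grp fs1), 1.83 and 0 (Slbp 10/12) and no read in Slbp 10/15. Cpr65Ea had 164 and 324 (wt), 0 and 0.94 (grp fs1) and no read in any Slbp library. For these genes every mutant library lay below every wt library, and grp fs1 replicate 2 was the highest of the mutant libraries.

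**Figure D4:**
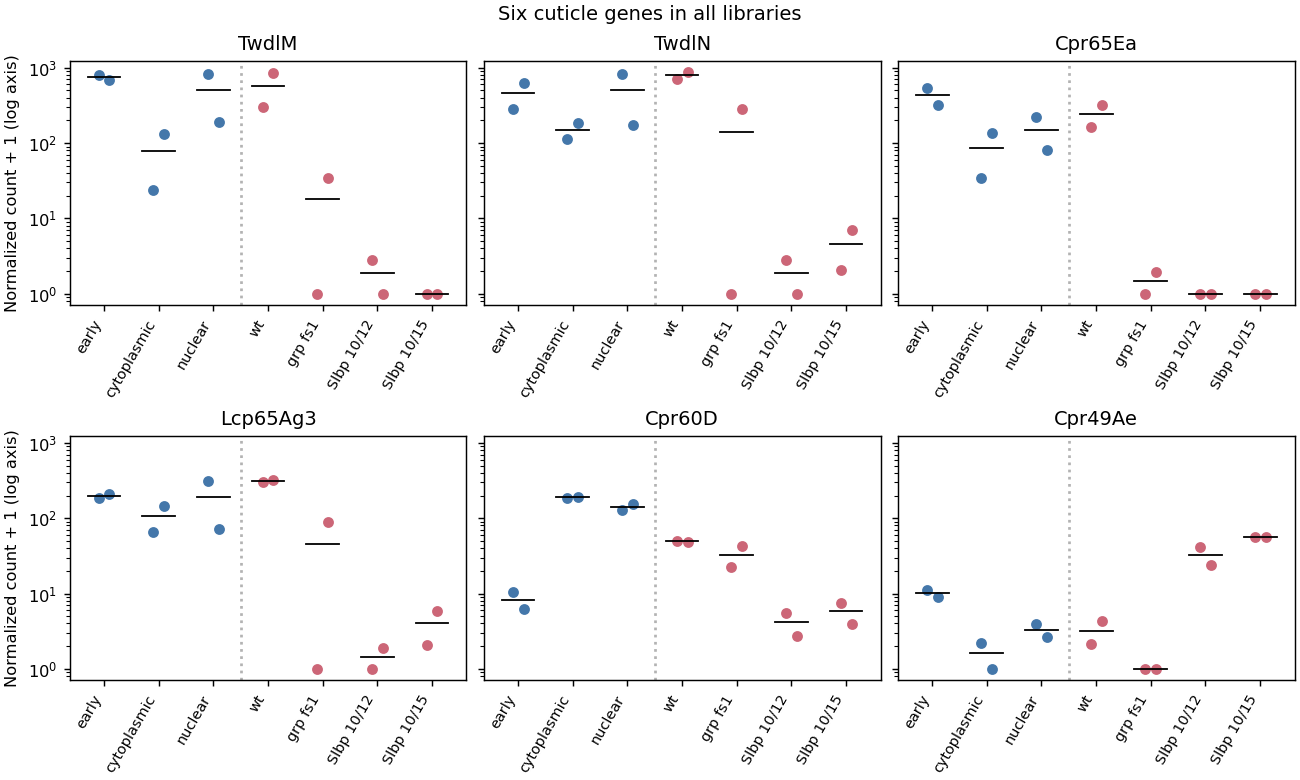
Normalized count + 1 on a log axis of 6 members in each library (points) with the group mean (line), blue for stages and extracts and red for genotypes, whose scales were set separately. TwdlM, TwdlN, Cpr65Ea and Lcp65Ag3 are high in early and wt embryos and near the base in the Slbp mutants, Cpr60D is low in early embryos (9.35 and 5.24), and Cpr49Ae is highest in the Slbp mutants (22.7 to 56.0).

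Of the 66 tested members, 51 were lower in grp fs1 than in wt and none was higher, 54 were lower and 1 higher in Slbp 10/12, and 53 were lower and 1 higher in Slbp 10/15. Among all 9868 genes tested, 28.7%, 33.0% and 38.9% were lower and 14.3%, 15.6% and 20.1% higher. However, 44 of the 66 members passed the filter through wt alone and so had to lie lower in the mutants. These counts describe the tested members without adding support, and so do the medians and the tests of such members below. By subfamily the lower members were 25 Cpr, 16 Twdl, 6 Ccp84 and 4 Lcp genes in grp fs1. In both Slbp mutants they were 25 Cpr, 17 Twdl, 6 Ccp84 and 5 Lcp genes, and in Slbp 10/12 Edg78E as well. The 3 mutants were compared with the same wt libraries.

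The median log2 difference over the tested members was -4.39, -4.16 and -4.45 for the mutants in that order, against -0.10, -0.11 and -0.19 over all genes. With members that had no read in the mutant set at their bound of 3 reads per library, the medians were -3.80, -3.77 and -3.52. Cpr65Ea differed by -7.38 in grp fs1 (SE 0.57, adjusted p = 3.1e-04), where 1 read was found. It was at least 90.9-fold lower in Slbp 10/12 (adjusted p = 3.4e-04) and at least 77.9-fold lower in Slbp 10/15 (adjusted p = 3.2e-04). TwdlD, with 107 and 214 in wt, had no read in grp fs1, at least 57.0-fold lower (adjusted p = 8.7e-04), and 1 and 2 reads in the Slbp mutants. Cpr65Ea and TwdlD passed the filter through wt alone, so that their being lower was set by the filter, though not by how much.

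TwdlB had 353 and 549 (wt), 0 and 31.1 in grp fs1 (-6.28, SE 1.40, adjusted p = 0.012) and no read in any Slbp library. It was at least 168-fold and 144-fold lower in Slbp 10/12 and Slbp 10/15 (adjusted p = 0.0031 and 0.0025). TwdlM was at least 183-fold lower in Slbp 10/15 (adjusted p = 0.0031). Ccp84Ae, the most abundant of the Ccp84 genes, which lie within the Antennapedia complex, had a wt mean of 37.5 and no read in any of the 6 mutant libraries. It was called lower in each mutant (adjusted p from 5.5e-04 to 5.9e-04), a direction that its passing the filter through wt alone had set.

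In grp fs1, 3 abundant genes with reads in replicate 2 did not pass the test, while others such as TwdlM and TwdlB did. TwdlN differed from wt by -5.55 (SE 2.26, adjusted p = 0.083), Lcp65Ag3 by -5.03 (SE 1.82, adjusted p = 0.059) and Cpr47Eg by -4.66 (SE 1.84, adjusted p = 0.076). In both Slbp mutants the same 3 genes were lower than in wt (adjusted p from 0.012 to 0.022). Edg78E, an ecdysone-dependent gene, had 5.82 and 16.4 in wt and rested on 20 reads there. It was called lower in Slbp 10/12 only just (-2.99, SE 1.05, adjusted p = 0.050) and not in Slbp 10/15 (-2.39, SE 1.05, adjusted p = 0.086) or grp fs1 (-2.19, SE 1.05, adjusted p = 0.13).

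Leaving out a wt library lowered these counts: without wt replicate 1 there were 31, 36 and 41 calls in the 3 mutants, and without wt replicate 2 there were 22, 31 and 32. With DESeq2 on the recovered reads 24 members were called in grp fs1, and with only the groups compared 29.

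Among the 66 tested members, 1 was called higher in the Slbp mutants. Cpr49Ae, at 2R:12402216-12405108 in a run of 8 Cpr49A genes, had 1.16 and 3.27 normalized counts (wt), 40.3 and 22.7 (Slbp 10/12) and 56.0 and 54.4 (Slbp 10/15), with no read in grp fs1. It passed the filter through the Slbp groups alone, so that its being higher there was set by the filter, though not by how much. All 4 Slbp libraries lay above both wt libraries, at 14.2-fold and 24.9-fold the wt mean. The log2 difference was 3.36 in Slbp 10/12 (SE 0.56, adjusted p = 0.0035) and 4.21 in Slbp 10/15 (SE 0.56, adjusted p = 0.0015), and -1.60 in grp fs1 (SE 0.56, adjusted p = 0.052). Cpr49Ae was the highest member in each Slbp library and made up 14.7% to 36.2% of their cuticle gene sum.

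In the other table Cpr49Ae had 10.3 and 7.87 in early embryos, 1.21 and 0 in the cytoplasmic extracts and a mean of 2.31 in the nuclear extracts. The early libraries were the highest there. Since Cpr49Ae passed the filter of that table through early embryos alone, its place among the 29 members lower in the cytoplasmic extracts is a description. Its neighbour Cpr49Ag, named in the genotype table after its values were seen, had 23.3 and 24.0 (wt), 0 and 7.53 (grp fs1), 15.6 and 11.4 (Slbp 10/12) and 16.5 and 7.92 (Slbp 10/15). It was lower in grp fs1 (-3.08, SE 0.97, adjusted p = 0.038), and its differences of -0.78 and -0.98 in the Slbp mutants did not pass the test (SE 0.97, adjusted p = 0.52 and 0.40).

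The last question was whether the mutants differed from each other. Against the mean of the Slbp mutants, 2 tested members were higher and 3 lower in grp fs1, where 19.4% and 16.3% of all genes were, with a median of 0.10 over the members and 0.05 over all genes. Cpr60D had 48.9 and 48.0 (wt), 21.5 and 41.4 (grp fs1), 4.58 and 1.75 (Slbp 10/12) and 6.59 and 2.97 (Slbp 10/15). Both grp fs1 libraries lay below wt and above all Slbp libraries. Its difference from the Slbp mean was 2.74 (SE 0.53, adjusted p = 0.0076). Against wt it was lower in Slbp 10/12 (-3.66, SE 0.61, adjusted p = 0.0037) and Slbp 10/15 (-3.17, SE 0.61, adjusted p = 0.0051), and the difference of -0.68 in grp fs1 did not pass the test (SE 0.61, adjusted p = 0.40).

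Cpr49Ae was lower in grp fs1 than in the Slbp mutants, by at least 15.4-fold (adjusted p = 4.0e-04), a direction that its passing the filter through the Slbp groups alone had set. Cpr67Fa2 (0.93 and 8.48 in grp fs1, no read in the Slbp mutants) was higher (adjusted p = 0.047). TwdlW had 0 and 0.94 in grp fs1 against 0.99 to 9.61 (-1.76, SE 0.54, adjusted p = 0.041), and Cpr35B had 0 and 0.94 against 2.62 to 6.59 (-1.69, SE 0.53, adjusted p = 0.043). Each of these 3 rested on at most 21 reads in a group. The count rested on single grp fs1 libraries, with 22 members higher when replicate 1 was left out and 10 lower when replicate 2 was. Between Slbp 10/12 and Slbp 10/15 no member was called by limma, edgeR or DESeq2, and 1 had an unadjusted p under 0.05 in limma, where 1.81% and 1.48% of all genes were called higher and lower.

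Within the family, grp fs1 replicate 2 held very unequal shares of wt. The 18 members with a mean of at least 20 over all libraries of each table were taken. This choice used grp fs1 replicate 2 itself: Cpr60D, with a wt mean of 48.4, was taken, while Cpr67Fa2, with 71.4, was not. Among the 18, grp fs1 replicate 2 held 85.6% of the wt mean for Cpr60D, 38.3% for Cpr47Eg, 35.5% for TwdlN and 28.6% for Lcp65Ag3. It held 5.90% for TwdlM, 1.28% for Cpr51A, 0.939% for TwdlY, 0.663% for TwdlF, 0.386% for Cpr65Ea and none for TwdlD. TwdlM, TwdlN and TwdlD lie in the same run of 12 Tweedle genes, so genes of 1 run differed in these shares.

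The members that grp fs1 replicate 2 held most of were also those with the highest ratio of nuclear extract to early embryo in the other table. Across the 18 genes the log2 ratios had Pearson's r = 0.75 and Spearman's rho = 0.83. Without Cpr60D, which lies far from the rest, they were 0.88 and 0.80, and without the 2 genes farthest from the median ratio 0.85 and 0.76. From nuclear replicate 1 and early replicate 1 alone the values were 0.86 and 0.81, but from nuclear replicate 2 and early replicate 2 they were 0.37 and 0.34. This is a description across genes, which are not independent replicates and share their libraries, and it rests on nuclear replicate 1 and on grp fs1 replicate 2. The choice of the 18 genes by their means used these same libraries.

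**Figure D5:**
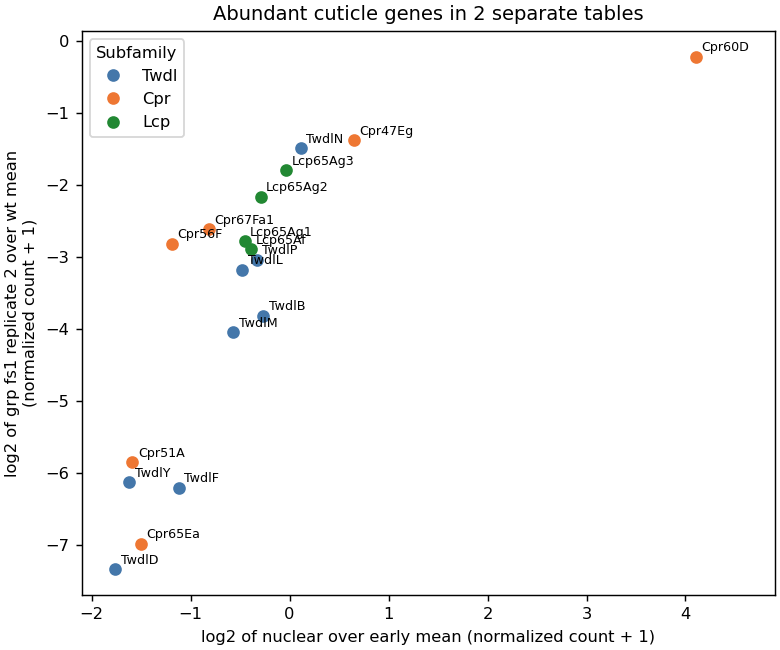
Each point is 1 of the 18 abundant members, with log2 of the nuclear over the early mean on the horizontal axis and log2 of grp fs1 replicate 2 over the wt mean on the vertical axis (normalized counts + 1, from 2 tables normalized separately). Cpr60D stands apart at the top right, TwdlN and Cpr47Eg follow, and TwdlD, Cpr65Ea, Cpr51A, TwdlY and TwdlF lie at the lower left.

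Other genes of the cuticle were followed with lists. Among all genes tested, 28.7%, 33.0% and 38.9% were lower and 14.3%, 15.6% and 20.1% higher in the 3 mutants. These shares stand beside every list count in the mutants below. List genes met the same filter, so any that passed through wt alone had to lie lower in the mutants. How many did is not given here, so list counts and medians against wt, and the tests of such genes, are descriptions. The list of apical matrix genes (ZP domain and related) had sums of 3666 and 4986 (wt), 107 and 283 (grp fs1) and 250 to 473 (Slbp). It also held trn and f, which do not encode matrix proteins. Of these sums, trn gave 1133 and 1473 (wt), 3.73 and 12.2 (grp fs1) and 5.94 to 143 (Slbp). Of 11 tested, 10, 10 and 9 were lower in the 3 mutants and none was higher. The giant matrix protein gene dp fell from 1509 and 2246 to 7.46 and 121 in grp fs1 (-5.84, SE 1.51, adjusted p = 0.020). In the other table this list summed to 3206 and 2786 in early embryos, 743 and 1287 in the cytoplasmic and 9608 and 5390 in the nuclear extracts. Of the nuclear sums, trn gave 3197 and 2434. Against early embryos, 7 of 11 were lower in the cytoplasmic extracts, beside 19.0% of all genes. In the nuclear extracts 1 of 11 was higher than in early embryos, beside 8.35% of all genes.

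Genes of chitin synthesis and of chitin binding had sums in the mutants (3819 to 5062 and 7356 to 9546) that overlapped or lay near those of wt (4582 and 4740, and 7597 and 9622). These sums were carried by a few genes such as mmy, the UDP-N-acetylglucosamine pyrophosphorylase, and Idgf4, a chitinase-like growth factor. By gene, 13, 12 and 14 of 18 for binding and modification were lower, with 2, 1 and 2 higher, and 3, 5 and 6 of 7 for synthesis and export were lower, with 1, 0 and 0 higher. The chitin synthase gene kkv, named after its values were seen, fell in grp fs1 (-4.78, SE 1.21, adjusted p = 0.019), Slbp 10/12 (adjusted p = 0.027) and Slbp 10/15 (adjusted p = 0.042).

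Of the 14 tested genes of tanning and melanization 11, 8 and 9 were lower and 0, 1 and 0 higher, while laccase2, the phenol oxidase that hardens cuticle, carried the list's sum at 1373 and 1394 in wt and 1388 to 1664 in the mutants. Of the 18 genes of ecdysone synthesis and response 11, 9 and 10 were lower and 1, 2 and 2 higher. Of the 12 genes listed as epidermal regulators 9, 8 and 9 were lower and 0, 1 and 0 higher. This list also held D, vvl, lz, nub and pdm2, which are not specific to the epidermis. ovo, the gene of the epidermal activator shavenbaby, had 8715 and 9414 in wt and 6512 to 10448 in the mutants. It passed the test in Slbp 10/15 alone (-0.38, SE 0.09, adjusted p = 0.011). In early embryos ovo had 12331 and 11721, and in the nuclear extracts 3315 and 4513. Counts per gene do not separate its transcripts, so the level of the epidermal form is not known from them.

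By their sums, some lists of markers of other cells of older embryos moved with the cuticle genes and others did not. The list of hemocytes and fat body summed to 4444 and 3818 in early embryos, 321 and 963 in the cytoplasmic and 6447 and 2787 in the nuclear extracts, with nuclear replicate 1 the highest. For genotypes it was 3044 and 3602 (wt), 302 and 2076 (grp fs1) and 272 to 370 (Slbp), with grp fs1 replicate 2 the highest mutant library. Of its 7 tested genes 2, 4 and 4 were lower and 0, 1 and 1 higher, and the count in grp fs1 lies at the share of all genes called lower there (28.7%). The collagen gene vkg had 1402 and 1649 (wt), 1.87 and 324 (grp fs1) and 0.87 to 4.58 (Slbp). srp had 491 and 464 (wt), 279 and 1337 (grp fs1) and 226 to 336 (Slbp), and so made up most of the list's sum in each mutant library.

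The list of muscle sarcomere summed to 48964 and 43835 in early embryos, 9989 and 38899 in the cytoplasmic and 55837 and 30618 in the nuclear extracts. It was 38752 and 42317 (wt), 10216 and 16230 (grp fs1) and 9856 to 10951 (Slbp), and 11, 15 and 15 of 16 genes were lower with none higher. Mhc had 6053 and 6787 (wt), 0.93 and 1123 (grp fs1) and 3.50 to 18.8 (Slbp). For trachea and salivary gland the sums were 240 and 396 in early embryos, 165 and 369 in the cytoplasmic and 1213 and 762 in the nuclear extracts, so that both nuclear libraries lay above the early ones. For genotypes they were 638 and 762 (wt), 49.5 and 114 (grp fs1) and 12.9 to 33.2 (Slbp), with 4, 5 and 5 of 5 lower, and Sgs3, Sgs5, Sgs7 and Sgs8 were at 0 in all libraries. Differentiated neurons summed to 13854 and 14190 in early embryos, 5578 and 7062 in the cytoplasmic and 16033 and 19683 in the nuclear extracts, with nuclear replicate 2 the highest. Their sums were 13091 and 13421 in wt and 9155 to 12478 in the mutants, a much smaller gap than that of the cuticle gene sums. Csp (5640 and 5463 in wt) and unc-13 (6126 and 6295 in wt) carried these sums. By gene, 8, 11 and 9 of 12 were lower and none higher, with median log2 differences of -3.23, -5.09 and -4.65. Those of the cuticle genes were -4.39, -4.16 and -4.45. elav had 700 and 973 (wt), 1.87 and 10.4 (grp fs1) and 7.92 to 75.8 (Slbp).

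Late zygotic blastoderm genes summed to 6458 and 4090 in early embryos and 39351 to 95483 in the extracts, and 11 of 11 were higher in each kind of extract than in early embryos, as Cpr60D and Pcp were among the members. Of all genes, 17.8% were higher in the cytoplasmic and 8.35% in the nuclear extracts. In the mutants 6, 10 and 11 of the 11 blastoderm genes were lower and none higher. Gut enzymes summed to 7.48 to 174 in the first table and 3.73 to 104 in the second, with 2 of 4 lower in each mutant. Genes of the adult eye and antenna summed to at most 111 in any library, with 1 of 2 lower in each mutant, and eggshell genes summed to at most 18.3. The part of other cells or ages of embryo in the levels of the cuticle genes was not tested.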

How the data were processed

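The authors depleted ribosomal RNA, sequenced the libraries on a HiSeq, mapped reads to dm3 by TopHat and counted them by featureCounts, per the paper and the submitters' notes. The signal used here is the deposited count per gene divided by the authors by 1 size factor per library (the notes name DESeq and the paper DESeq2). The deposited FPKM values of the genotype table were made by the authors as that normalized count per kilobase and divided by 21.453343, 1 constant for all 8 libraries, and were used only to order genes. Dividing a library's values by its smallest step gave back whole reads (100% of values whole within 0.01). In Slbp 10/15 replicate 2 the step is near 1 (0.99).

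Every gene whose group mean reached 5 anywhere in its table entered limma 3.58.1 (R version 4.3.3), on log2(normalized count + 1), which understates changes of low genes, with trended variance, all groups of a table in 1 fit, no block, two-sided, and Benjamini-Hochberg adjustment over 10335 or 9868 genes at 0.05. "At least" folds set 3 reads per library as the floor for a group without reads. Floors cover counting error only. The members and lists were chosen with earlier results of these data known. Named are the 10 members with the highest mean per table, up to 6 called members with the largest change per comparison, the leading member per subfamily and up to 3 leading genes per list; others are said to be named after their values were seen. Alternatives were a fit of the compared groups alone, a pseudocount of 5, no filter, upper quartile scaling, the replicate number as a block, each library left out in turn, and count tests on the recovered reads (edgeR 4.0.16, DESeq2 1.42.0). The fits were tested on simulated data. No sequences are printed.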

Additional observations from a re-analysis of the deposited data

Results flagged for a closer look

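For 5 members the difference from wt was not the same in grp fs1 as in the Slbp mutants by the test of the difference itself (grp fs1 minus the mean of Slbp 10/12 and Slbp 10/15, limma, which shares no wt library). Cpr49Ae differed by -5.39 on the log2 scale (adjusted p = 4.0e-04), with all 4 Slbp libraries above both grp fs1 libraries, a direction set by its passing the filter through the Slbp groups alone. Cpr60D differed by 2.74 (adjusted p = 0.0076), higher in both grp fs1 libraries than in all 4 Slbp libraries. Cpr67Fa2 differed by 2.10 (adjusted p = 0.047), TwdlW by -1.76 (adjusted p = 0.041) and Cpr35B by -1.69 (adjusted p = 0.043). For Cpr67Fa2, TwdlW and Cpr35B the call was lost under 3 or more of the other settings.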

How the results depend on the processing

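No direction of a named call reversed under these alternatives. Counts of called members that moved by over 1.5 times were: nuclear against cytoplasmic (17 above), 8 with upper quartile scaling and 9 with edgeR; nuclear against early (10 above), 4 with no filter, 3 with upper quartile scaling, 4 with edgeR and 16 with only the groups compared; cytoplasmic against early (31 above), 16, 19 and 18 with upper quartile scaling, edgeR and only the groups compared; grp fs1 against wt (51 above), 24 with DESeq2 and 29 with only the groups compared; and grp fs1 against the Slbp mean (5 above), 2 with a pseudocount of 5, 3 with no filter, 2 with upper quartile scaling, 8 with DESeq2 and 2 with only the groups compared. The cause of these moves was not tested. Leaving out each library gave 1 to 32 calls for nuclear against cytoplasmic, 1 to 16 for nuclear against early, 15 to 44 for cytoplasmic against early, 22 to 61 for grp fs1, 31 to 58 for Slbp 10/12 and 32 to 58 for Slbp 10/15 against wt, 2 to 23 for grp fs1 against the Slbp mean and 0 throughout between the Slbp mutants. A lone library left in a group was assumed to vary like the others. Over the named genes' calls and the other settings, the call was made again in 564 cases and not in 87, and with a library left out in 517 cases and not in 161.

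The replicate numbers are shared between groups, but no source says that they pair the samples. Deviations of same-numbered libraries correlated at -0.51 between cytoplasmic and nuclear extracts and between -0.20 and 0.09 in the other pairs of groups. With the replicate block the counts were 17, 12, 32, 51, 55, 55, 4 and 0 in the order above, and 3 named calls were lost (Pcp in cytoplasmic against early, Edg78E in Slbp 10/12 and Cpr35B in grp fs1 against the Slbp mean). Members whose mean stayed under 5 normalized counts in every group rest on few reads and were not tested, except with no filter.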
